A study of Mus musculus with 6 samples.

Results

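The genes described here are 36 genes of sterol and fatty acid metabolism, chosen by name from the 55060 genes of the deposited table. Each was found once, and all 36 passed the filter on low values, a mean FPKM of at least 0.1 over the 6 samples. They fall into 18 enzymes of cholesterol synthesis (7 of the mevalonate pathway and 11 of the squalene and sterol steps), 5 genes of SREBP control, 4 of LDL uptake and intracellular cholesterol transport, 5 of efflux, LXR signalling and storage, and 4 of fatty acid synthesis. RNA-seq was made from islets of 3 Ctrl and 3 cKO samples from mice of 12 weeks of age. The cKO mice were *Ins2-cre; Parn f/f*, in which Cre under the *Ins2* promoter removes exon 7 of *Parn*, which encodes a poly(A)-specific ribonuclease, in β cells. The Ctrl mice were *Parn f/f* animals, which carry the floxed allele without Cre, and other littermates. Which of these each Ctrl sample came from is not given in the labels. Every cKO sample carries Cre, so effects of Cre and of the loss of *Parn* cannot be told apart here. The islets were isolated with collagenase and hold α, δ and other cells besides β cells. The labels do not say whether the samples of a genotype came from separate animals, so the p-values measure the spread between these samples, which may be partly technical.

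Cholesterol is made from acetyl-CoA through the mevalonate pathway, which yields isoprenoids, and through squalene and a series of sterol intermediates. Its synthesis and uptake are set by the SREBP transcription factors, which SCAP escorts out of the endoplasmic reticulum when sterols are low and which the INSIG proteins hold back when sterols are high. The LXR receptors act when oxysterols accumulate and switch on the exporters ABCA1 and ABCG1. In β cells, membrane cholesterol is known to affect the exocytosis of insulin granules.

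The start sites of 4 genes are shown because the text turns on these genes. *Hmgcs1* and *Insig1* were lower on average in cKO islets, and *Dhcr7* and *Soat1* were higher on average. None of the 4 had an adjusted p under 0.05 by limma, and *Soat1* overlapped between the genotypes. Each window runs from 250 bases before to 50 bases after a RefSeq start site (GRCm38.p6). Capitals mark matches to CCAAT on either strand (ATTGG when it lies on the other one), the letters bound by the factor NF-Y, and, in *Hmgcs1*, a match to TCACNCCAC, a form of the sterol regulatory element bound by SREBP. For *Dhcr7* the third of its start sites is shown, 7069 bases from the start of the gene in the deposited table.
Hmgcs1, chr13:119690101-119690400, plus strand: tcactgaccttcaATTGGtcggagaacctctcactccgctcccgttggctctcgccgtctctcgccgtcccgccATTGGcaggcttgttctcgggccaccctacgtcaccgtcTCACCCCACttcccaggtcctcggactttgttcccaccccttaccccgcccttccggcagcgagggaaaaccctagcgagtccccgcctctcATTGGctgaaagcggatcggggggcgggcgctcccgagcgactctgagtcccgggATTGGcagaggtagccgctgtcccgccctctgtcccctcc
Insig1, chr5:28071162-28071461, plus strand: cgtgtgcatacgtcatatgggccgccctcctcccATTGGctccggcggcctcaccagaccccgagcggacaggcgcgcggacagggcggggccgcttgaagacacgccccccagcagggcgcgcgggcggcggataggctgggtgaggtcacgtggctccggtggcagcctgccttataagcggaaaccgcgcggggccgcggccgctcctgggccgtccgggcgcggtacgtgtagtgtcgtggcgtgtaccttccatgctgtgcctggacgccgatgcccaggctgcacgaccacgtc
Dhcr7, chr7:143829964-143830263, plus strand: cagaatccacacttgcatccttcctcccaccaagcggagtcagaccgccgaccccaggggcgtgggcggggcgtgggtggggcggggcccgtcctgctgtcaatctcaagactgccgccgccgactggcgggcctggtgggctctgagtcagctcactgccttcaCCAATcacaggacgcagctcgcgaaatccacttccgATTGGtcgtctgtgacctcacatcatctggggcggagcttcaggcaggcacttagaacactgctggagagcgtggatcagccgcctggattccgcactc
Soat1, chr1:156474279-156474578, minus strand: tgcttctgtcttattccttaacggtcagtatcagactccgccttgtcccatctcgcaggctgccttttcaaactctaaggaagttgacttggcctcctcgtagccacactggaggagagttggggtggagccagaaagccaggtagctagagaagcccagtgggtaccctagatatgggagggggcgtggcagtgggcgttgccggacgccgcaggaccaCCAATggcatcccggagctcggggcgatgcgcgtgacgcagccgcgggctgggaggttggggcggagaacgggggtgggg

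RefSeq windows were found for 28 of the 36 genes, 37 windows in all, and none was printed or searched for *Fdps*, *Fdft1*, *Sqle*, *Npc1*, *Stard4*, *Abcg1*, *Scd1* and *Scd2*. CCAAT was present on either strand in a window of 22 of the 28 genes (78.6%), against 41.1% of the 27025 genes with a window. Among the cholesterol synthesis enzymes it was present in 14 of 15 (93.3%), and all 9 late enzymes with a window held it. Of the 4 efflux and storage genes with a window, only *Soat1* held it. In *Dhcr7* both matches lay in the third window, and the windows of its first and second start sites held none. TCACNCCAC, a form of the sterol regulatory element, was found on either strand in *Hmgcs1* alone, 1 of the 28 genes (3.57%), against 1.44% of all genes with a window. The palindrome TCACGTGA, an E-box form of the SREBP site, was in none of the 28 and in 1.12% of all genes with a window. The 3 motifs were searched apart, and a match is a description of the letters and not a binding site. Other forms of the SREBP site were not searched, so a window without a match may still hold a site.

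**Figure D1:**
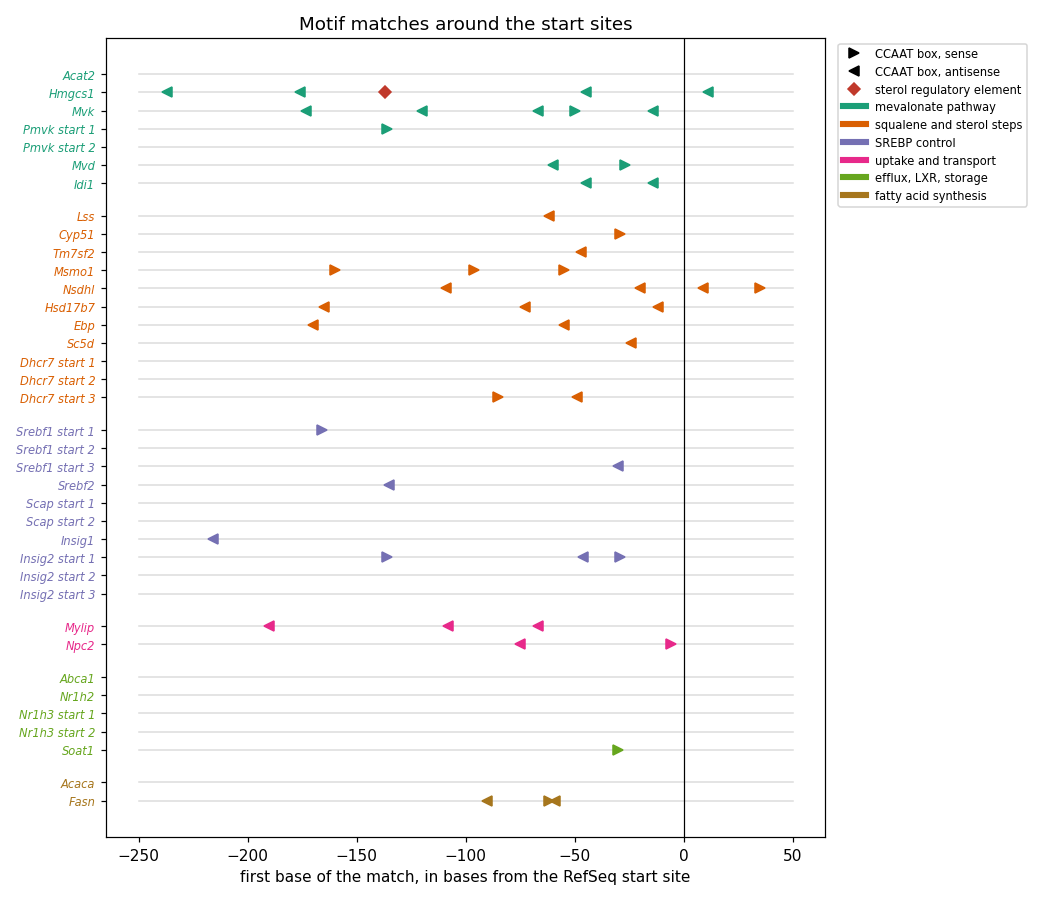
Positions of CCAAT matches (triangles, pointing right for the sense and left for the antisense strand) and of the sterol regulatory element match (red diamond) in the windows around the RefSeq start sites of 28 genes, in bases from the start site (x axis). Colours stand for the roles of the genes; 14 of the 15 cholesterol synthesis enzymes and 1 of the 4 efflux and storage genes had a CCAAT match.

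Expression was read as FPKM, fragments scaled by the length of the gene and by a total for each sample. This allows levels to be compared between genes. The total worked back from FPKM was not the count of reads on genes. It lay below that count in every Ctrl sample (15731223 against 16470783 in Ctrl replicate 2). It lay above that count in every cKO sample (17386442 against 16289408 in cKO replicate 2). How the total was set is not given in the sources used here. The reads assigned to genes, worked back from FPKM, numbered 16289408 to 17944775 per sample. *Ins2* took 20.2% to 22.7% of the reads in Ctrl and 14.7% to 17.6% in cKO samples. *Parn*, whose FPKM counts all of its exons and the cells without Cre, was at 6.64, 8.34 and 7.38 FPKM in Ctrl and at 4.97, 4.61 and 6.15 FPKM in cKO samples, without overlap. Ctrl replicate 1 stood apart from the other 5 samples on the first principal component, and its 7 macrophage markers summed to 772 FPKM against 99.3 to 196 FPKM in the others. *Lyz2* made most of that sum, at 539 FPKM against 15.6 to 56.0 FPKM, though all 7 were highest in Ctrl replicate 1. The 4 B and T cell markers summed to 51.3 FPKM in Ctrl replicate 1 against 6.07 to 12.7 FPKM in the others. The 4 endothelial markers summed to 84.7 to 99.1 FPKM in Ctrl and to 109 to 139 FPKM in cKO samples, and the 6 acinar markers to 6642 to 18288 FPKM and 8268 to 30188 FPKM. *Plvap* made most of the endothelial sum. *Plvap* and *Cdh5* were higher in cKO samples without overlap, whereas *Pecam1* and *Kdr* overlapped. The 8 β cell markers, *Ins1* and *Ins2* among them, summed to 235454 to 275651 FPKM in Ctrl and to 194978 to 217129 FPKM in cKO samples. This sum was made mostly of *Ins1* and *Ins2*, and its members did not share a direction: *Ins2* and *Iapp* were lower without overlap, *G6pc2* was higher without overlap (992 to 1266 FPKM against 1422 to 1476 FPKM), and the other 5 overlapped. All markers of these 5 lists were detected in some sample. In whole islets, fewer cells of a type and less RNA per cell cannot be told apart, and the part of these cell types in the results below was not tested.

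The question put to the data was which of the 36 genes differed between Ctrl and cKO islets. In cKO islets 5 genes were lower at an unadjusted p under 0.05: *Hmgcs1* and *Tm7sf2* of cholesterol synthesis, *Insig1* of SREBP control, *Npc2* of intracellular transport and *Scd2* of fatty acid synthesis. *Dhcr7*, the last enzyme of one branch of cholesterol synthesis, and *Soat1*, which esterifies cholesterol, were higher. The 5 lower genes are 13.9% of the 36, against 3.07% of the 21211 genes tested, and the 2 higher genes are 5.56%, against 4.33%. No gene of the 36, and 0% of all genes tested, had an adjusted p under 0.05 by limma with Benjamini-Hochberg adjustment, where 1570 genes had an unadjusted p under 0.05, and limma's voom on the reads also called 0. The smallest adjusted p among the 36 was 0.392, for *Dhcr7*. The median log2 fold change of the 36 was -0.11, against -0.01 over all genes tested, and 24 of the 36 (66.7%) were below 0, against 53.5% of all genes tested. All log2 fold changes are cKO minus Ctrl on the log2(FPKM + 1) scale, on which the difference of a gene with low FPKM appears smaller than it is.

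Counting samples instead, the 3 cKO samples all lay under the lowest Ctrl sample for 6 genes (*Hmgcs1*, *Tm7sf2*, *Insig1*, *Npc2*, *Nr1h3* and *Scd2*), 16.7% of the 36 against 6.03% of all genes tested. They all lay over the highest Ctrl sample for 4 genes (*Sqle*, *Ebp*, *Dhcr7* and *Insig2*), 11.1% against 7.11%. At this number of samples the smallest p that an exact permutation test of 1 gene can give, two-sided, is 0.1. *Dhcr7*, *Insig1* and *Scd2* kept an unadjusted p under 0.05 in all 14 alternatives of the fit, whereas *Hmgcs1*, *Tm7sf2*, *Npc2* and *Soat1* lost it in 5 or 6 of them. The alternatives reuse the same samples, and some differ little from the main fit, so they are not independent checks. Without Ctrl replicate 1, 4 of the 36 were lower at an unadjusted p under 0.05 (11.1%, against 5.53% of all genes in that fit) and 2 higher (5.56% against 5.90%). The number of lower genes was 3 (8.33%) without Ctrl replicate 2, without cKO replicate 1 or without cKO replicate 2, where 2.62%, 2.56% and 2.20% of all genes were lower, and 2 (5.56%) without cKO replicate 3, where 1.90% were. The number of higher genes was 1 (2.78%) without Ctrl replicate 3, without cKO replicate 1 or without cKO replicate 2, where 3.82%, 4.11% and 3.60% of all genes were higher. With TPM that leave out *Ins1* and *Ins2*, 3 genes were lower (8.33% against 2.41%) and 2 higher (5.56% against 3.91%).

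**Figure D2:**
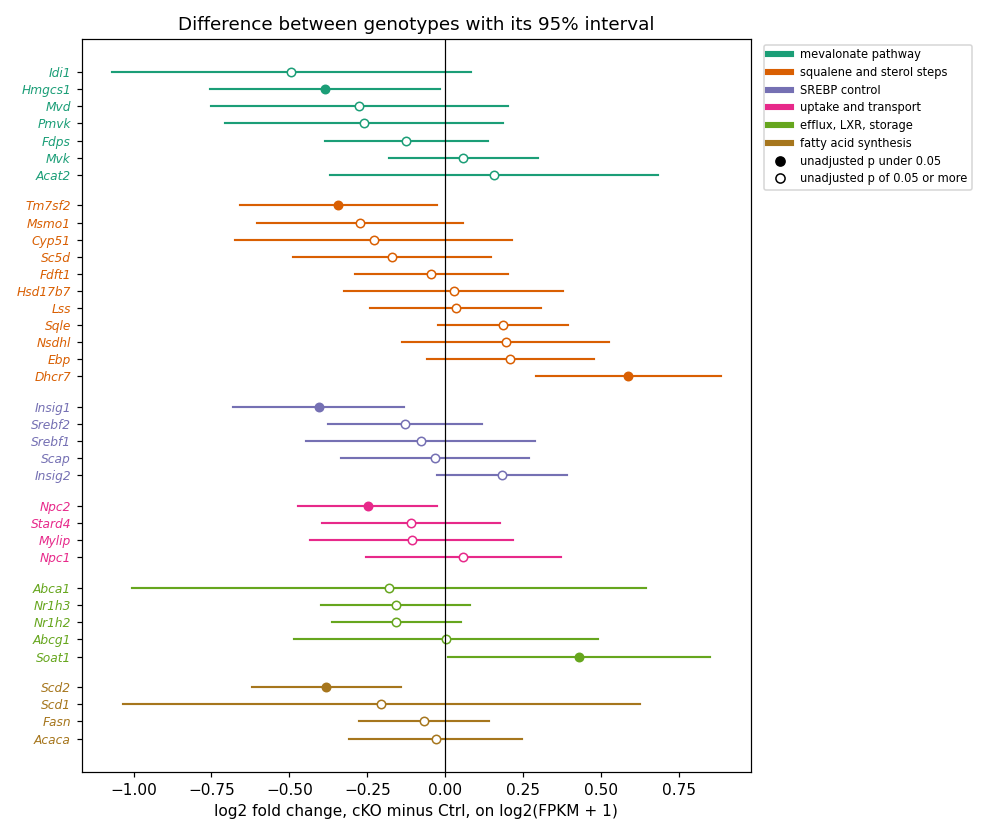
Log2 fold change of each gene between cKO and Ctrl islets (x axis, cKO minus Ctrl on log2(FPKM + 1), limma) with its 95% interval (line), ordered within roles (colours). Filled circles have an unadjusted p under 0.05; *Dhcr7* lies farthest to the right at 0.59, and *Insig1* and *Scd2* lie below 0 with intervals that do not reach it.

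The mevalonate pathway was carried by *Pmvk* and *Hmgcs1* at the highest levels and by *Fdps* at the lowest. *Hmgcs1* (ENSMUSG00000093930, chromosome 13, 119690379 to 119708260, GRCm38), which condenses acetyl-CoA with acetoacetyl-CoA, was at 9.37, 11.1 and 7.04 FPKM in Ctrl and at 6.57, 6.79 and 6.67 FPKM in cKO samples. The cKO samples lay close together, and Ctrl replicate 3 came near them. The means were 9.16 ± 2.02 FPKM (SD, n = 3) in Ctrl and 6.67 ± 0.109 FPKM (SD, n = 3) in cKO. The log2 fold change was -0.39 (SE 0.153, limma unadjusted p = 0.0430, adjusted p = 0.662). Without Ctrl replicate 3 its limma log2 fold change was -0.54, with an unadjusted p of 0.00254, and without each other sample in turn it lay between -0.40 and -0.25 with unadjusted p of 0.0899 to 0.122. Its window is the one that holds the match to TCACNCCAC.

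*Idi1*, which interconverts the isoprenoid building blocks, had a log2 fold change of -0.49, with a 95% interval from -1.07 to 0.08, and of -0.25 without Ctrl replicate 1. Its level was 4.14, 2.10 and 2.08 FPKM in Ctrl and 1.30, 2.12 and 1.45 FPKM in cKO samples. Ctrl replicate 1 stood above the rest, and the groups overlapped through cKO replicate 2. *Pmvk*, the second of the mevalonate kinases, was at 15.6, 14.5 and 9.47 FPKM in Ctrl and at 11.4, 10.95 and 9.55 FPKM in cKO samples. *Mvd*, the decarboxylase after it, was at 5.95, 3.66 and 4.20 FPKM against 4.01, 4.11 and 2.71 FPKM. Both overlapped between the genotypes, with 95% intervals from -0.71 to 0.18 and from -0.75 to 0.20. For *Pmvk* the log2 fold change, -0.26, became -0.47 without Ctrl replicate 3 (limma unadjusted p = 0.00590) and -0.13 without Ctrl replicate 1. For *Mvd* it was -0.28 and became -0.11 without Ctrl replicate 1 and -0.13 without cKO replicate 3. *Mvk*, the first mevalonate kinase, had a log2 fold change of 0.06 (95% interval -0.18 to 0.30), and *Acat2*, which makes acetoacetyl-CoA, of 0.16 (-0.37 to 0.68). *Acat2* is 98.7% identical to *Tcp1* over 445 bases, and *Tcp1* was at 16.4 FPKM on average, so reads in that stretch may be shared.

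*Fdps*, which makes farnesyl diphosphate, was listed at 0.0920 to 0.357 FPKM, the lowest level of the 36. The gene copy *Gm3571* is 98.9% identical to it over 1062 bases and was at 2.69 FPKM on average over the 6 samples, so reads of *Fdps* may be counted there. *Gm3571* was at 3.51, 2.88 and 2.44 FPKM in Ctrl and at 2.85, 1.84 and 2.61 FPKM in cKO samples, with a log2 fold change of -0.20 (95% interval -0.60 to 0.20). Both the gene and its copy overlapped between the genotypes. The summed FPKM of the 7 mevalonate genes was 44.4, 38.2 and 32.1 in Ctrl and 31.9, 34.7 and 28.6 in cKO samples. These sums overlapped, and Ctrl replicate 1 gave the highest.

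**Figure D3:**
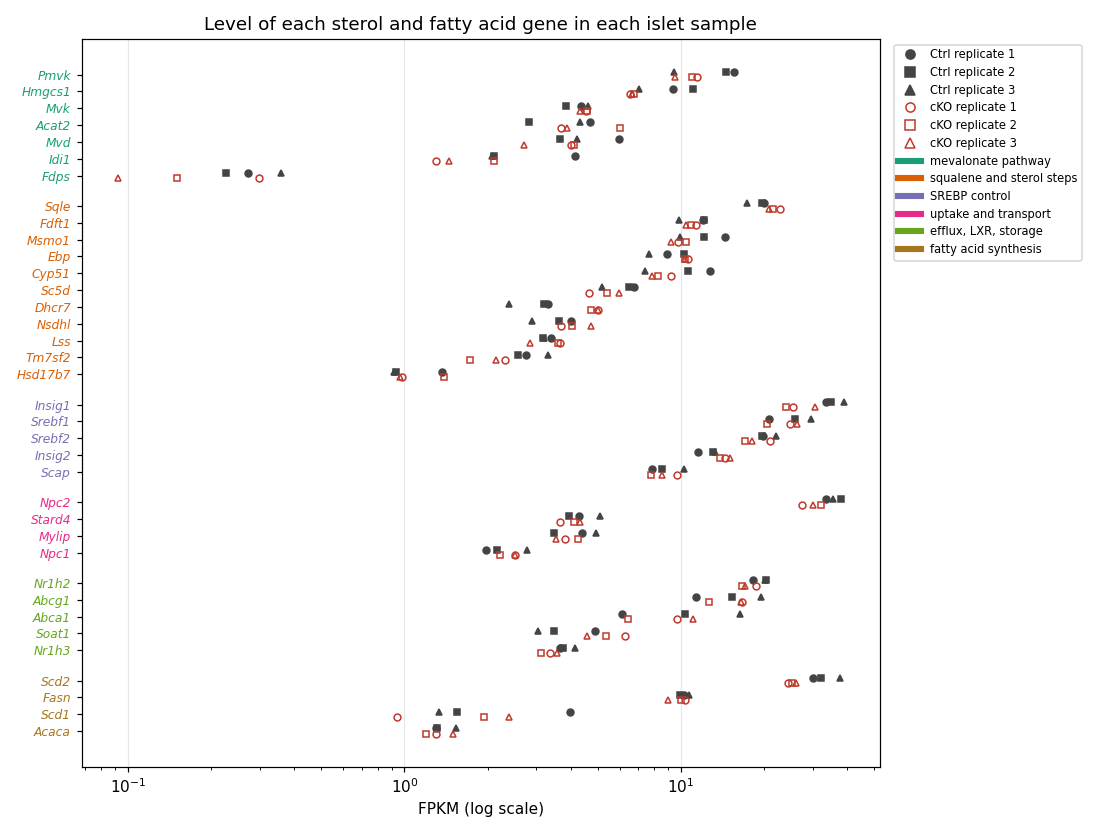
FPKM of each gene (x axis, log scale) in the 3 Ctrl samples (filled) and the 3 cKO samples (open), with circles, squares and triangles for replicates 1, 2 and 3, and the genes ordered by mean level within roles (colours of the names). *Insig1*, *Npc2* and *Scd2* are among the most abundant genes at 24.1 to 38.8 FPKM, *Fdps* is the least abundant, and *Scd1* spreads most widely in Ctrl.

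The squalene and sterol steps did not share a direction: 6 of the 11 genes had a log2 fold change above 0 and 5 below. *Dhcr7* (ENSMUSG00000058454, chromosome 7, 143823145 to 143848410) reduces 7-dehydrocholesterol to cholesterol. It was at 3.31, 3.20 and 2.39 FPKM in Ctrl and at 5.01, 4.75 and 5.02 FPKM in cKO samples. The genotypes did not overlap, and the lowest cKO sample was above the highest Ctrl sample by more than the range of the cKO samples. The means were 2.97 ± 0.505 FPKM (SD, n = 3) and 4.93 ± 0.155 FPKM (SD, n = 3), a ratio of 1.66 between them. The log2 fold change was 0.59 (SE 0.123, limma unadjusted p = 0.00253, adjusted p = 0.392). Over the 14 alternatives the unadjusted limma p lay between 0.000968 and 0.0125 and the adjusted p between 0.197 and 0.797.

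*Sc5d*, which makes the 7-dehydrocholesterol that DHCR7 reduces, was lower on average in cKO islets. It was at 6.77, 6.47 and 5.19 FPKM in Ctrl and at 4.64, 5.39 and 5.99 FPKM in cKO samples, overlapping, with a log2 fold change of -0.17 (95% interval -0.49 to 0.15). Within each sample the ratio of *Dhcr7* to *Sc5d* was 0.489, 0.495 and 0.460 in Ctrl and 1.08, 0.881 and 0.838 in cKO samples. The ratio did not overlap between the genotypes, and it is not independent of the *Dhcr7* difference itself.

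*Tm7sf2* (ENSMUSG00000024799, chromosome 19, 6062821 to 6077197), a sterol C14 reductase, was at 2.76, 2.57 and 3.31 FPKM in Ctrl and at 2.31, 1.73 and 2.14 FPKM in cKO samples. The genotypes did not overlap, with means of 2.88 ± 0.385 FPKM (SD, n = 3) and 2.06 ± 0.299 FPKM (SD, n = 3). The log2 fold change was -0.34 (SE 0.132, limma unadjusted p = 0.0375, adjusted p = 0.645). It shares 532 bases with *Vps51* on the same strand, which was at 1.04 FPKM on average, so reads in that stretch cannot be assigned with certainty.

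*Sqle*, the epoxidase that acts on squalene, was the most abundant synthesis gene, at 19.97, 19.7 and 17.4 FPKM in Ctrl and at 22.9, 21.6 and 20.8 FPKM in cKO samples. *Ebp*, the sterol isomerase, was at 8.91, 10.3 and 7.68 FPKM in Ctrl and at 10.6, 10.4 and 10.3 FPKM in cKO samples. Neither overlapped between the genotypes, though for *Ebp* the gap to Ctrl replicate 2 was small. Their log2 fold changes by limma were 0.19 (95% interval -0.02 to 0.39) and 0.21 (-0.06 to 0.48). Their adjusted p were 0.700 and 0.743.

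*Msmo1*, which removes the C4 methyl groups, was at 14.4, 12.2 and 9.92 FPKM in Ctrl and at 9.77, 10.4 and 9.20 FPKM in cKO samples. *Cyp51*, the lanosterol demethylase, was at 12.7, 10.7 and 7.39 FPKM against 9.19, 8.25 and 7.84 FPKM. In both genes Ctrl replicate 1 was highest and Ctrl replicate 3 low enough to overlap the cKO samples. Their limma log2 fold changes were -0.27 and -0.23; without Ctrl replicate 3 they were -0.40 (unadjusted p = 0.0123) and -0.43 (unadjusted p = 0.0140), and without Ctrl replicate 1 they were -0.15 and -0.07. The remaining enzymes overlapped: *Fdft1*, which makes squalene, at -0.05 (95% interval -0.29 to 0.20), *Lss*, which closes the ring, at 0.03 (-0.24 to 0.31), *Nsdhl* at 0.19 (-0.14 to 0.53) and *Hsd17b7* at 0.03 (-0.33 to 0.38), both of which act in the removal of the C4 methyl groups. *Fdft1* shares 774 bases with *Ctsb*, which was at 39.9 FPKM on average, and whether the counting used strand is not given in the sources used here. Summed over the 18 synthesis genes the level was 134, 123 and 102 FPKM in Ctrl and 116, 117 and 109 FPKM in cKO samples, so the cKO sums lay inside the Ctrl range.

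**Figure D4:**
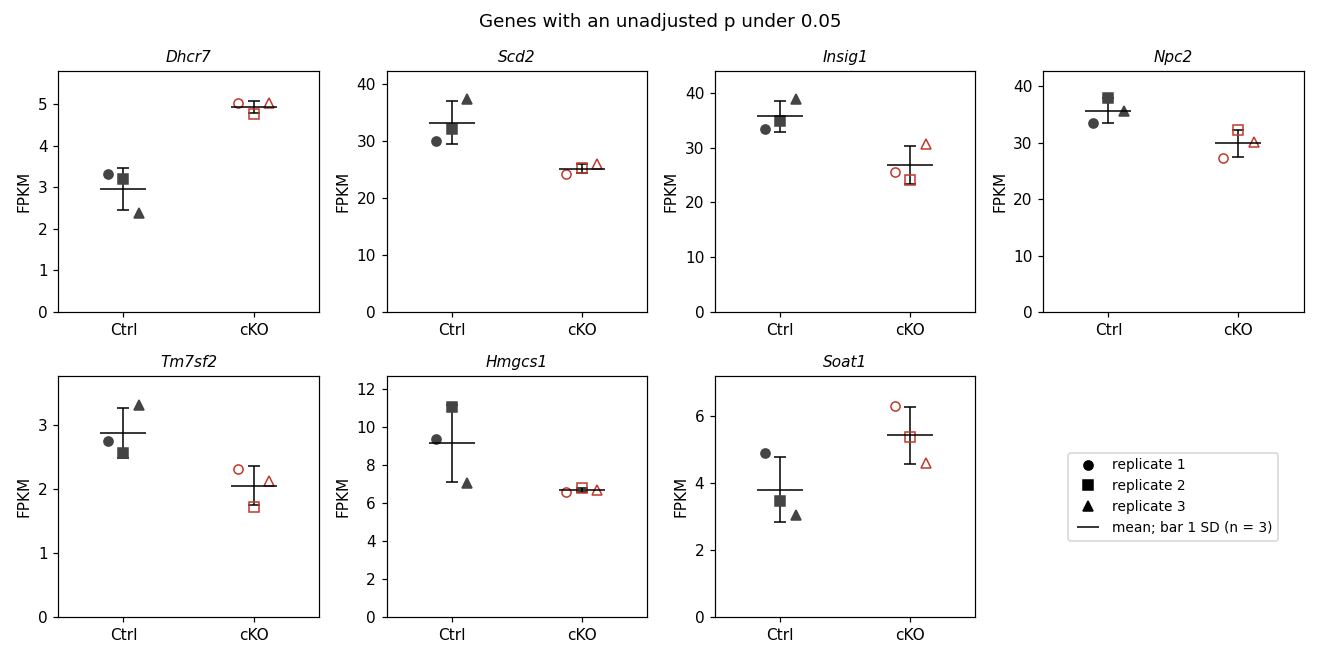
FPKM (y axis, from 0) of the 7 genes with an unadjusted p under 0.05 in the Ctrl (filled) and cKO (open) samples, with a marker shape for each replicate, a horizontal bar for the mean and error bars of 1 SD (n = 3). *Dhcr7* and *Soat1* were higher in cKO and the others lower; only *Soat1* overlaps between the genotypes.

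Of the SREBP control genes, *Insig1* and *Insig2* had log2 fold changes of opposite sign. *Insig1* (ENSMUSG00000045294, chromosome 5, 28071363 to 28078662), an anchor of the SCAP complex that is itself a target of SREBP, was at 33.5, 34.8 and 38.8 FPKM in Ctrl and at 25.5, 24.1 and 30.7 FPKM in cKO samples. The genotypes did not overlap, with means of 35.7 ± 2.79 FPKM (SD, n = 3) and 26.8 ± 3.45 FPKM (SD, n = 3). The log2 fold change was -0.41 (SE 0.114, limma unadjusted p = 0.0103, adjusted p = 0.511). Over the 14 alternatives the unadjusted limma p lay between 0.00386 and 0.0381. *Insig2*, the related anchor, was at 11.5, 13.1 and 13.3 FPKM in Ctrl and at 14.4, 13.9 and 15.1 FPKM in cKO samples, without overlap. Its log2 fold change was 0.18 (95% interval -0.03 to 0.39, limma unadjusted p = 0.0766).

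Within each sample *Insig1* exceeded *Insig2* by 2.91, 2.66 and 2.92 times in Ctrl and by 1.77, 1.74 and 2.04 times in cKO samples. Since *Insig1* was lower and *Insig2* higher without overlap, the separation of this ratio restates their levels and adds nothing to them. *Srebf1* and *Srebf2*, which encode the SREBP factors, and *Scap* all overlapped. *Srebf1* was at 20.8, 25.95 and 29.4 FPKM in Ctrl and at 24.7, 20.5 and 26.3 FPKM in cKO samples, with a 95% interval of the log2 fold change from -0.45 to 0.29. *Srebf2* was at 19.9, 19.6 and 22.1 FPKM against 21.0, 17.1 and 18.1 FPKM, with an interval from -0.37 to 0.12. For *Scap*, at 7.78 to 10.3 FPKM over the 6 samples, the interval ran from -0.33 to 0.27.

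**Figure D5:**
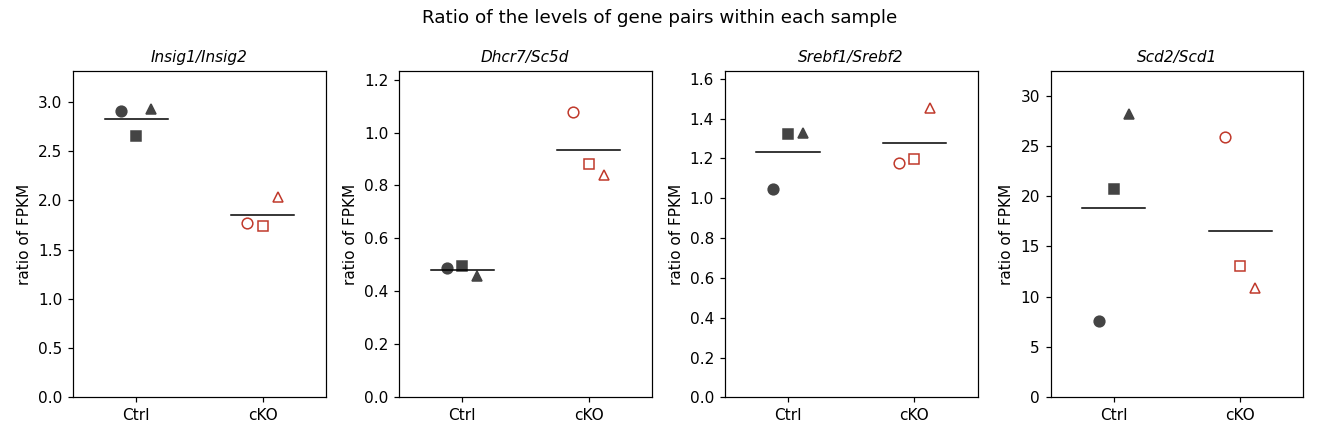
Ratio of FPKM of the gene pairs *Insig1*/*Insig2*, *Dhcr7*/*Sc5d*, *Srebf1*/*Srebf2* and *Scd2*/*Scd1* within each Ctrl (filled) and cKO (open) sample (y axis, from 0; shapes are replicates as in the plot of levels; lines are means of 3 samples). The ratios of *Insig1* to *Insig2* and of *Dhcr7* to *Sc5d* do not overlap between the genotypes, which restates the levels of *Insig1*, *Insig2* and *Dhcr7* that did not overlap either, and those of *Srebf1* to *Srebf2* and of *Scd2* to *Scd1* overlap.

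Among the genes of uptake and intracellular transport, *Npc2* (ENSMUSG00000021242, chromosome 12, 84754562 to 84773152), the lysosomal protein that hands cholesterol to NPC1, was at 33.5, 37.9 and 35.6 FPKM in Ctrl and at 27.3, 32.2 and 30.1 FPKM in cKO samples. The genotypes did not overlap, and cKO replicate 2 came close to Ctrl replicate 1. The means were 35.7 ± 2.22 FPKM (SD, n = 3) and 29.9 ± 2.45 FPKM (SD, n = 3). The log2 fold change was -0.25 (SE 0.0926, limma unadjusted p = 0.0333, adjusted p = 0.630). *Npc1*, its membrane partner, was at 1.97 to 2.77 FPKM in Ctrl and 2.21 to 2.52 FPKM in cKO samples, with a 95% interval from -0.25 to 0.37. *Npc1* shares 323 bases with *Rmc1*, which was at 3.80 FPKM on average, so reads in that stretch cannot be assigned with certainty. *Mylip*, a ligase that marks lipoprotein receptors for degradation, and *Stard4*, a cytosolic sterol carrier, overlapped as well, at -0.11 (-0.43 to 0.22) and -0.11 (-0.39 to 0.17). The 4 genes summed to 44.1, 47.5 and 48.4 FPKM in Ctrl and to 37.3, 42.8 and 40.4 FPKM in cKO samples, a sum made mostly of *Npc2*.

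Of the efflux, LXR and storage genes, *Soat1* (ENSMUSG00000026600, chromosome 1, 156424525 to 156474331) was higher in cKO islets. It was at 4.88, 3.47 and 3.04 FPKM in Ctrl and at 6.28, 5.35 and 4.59 FPKM in cKO samples, and Ctrl replicate 1 lay above cKO replicate 3. The means were 3.80 ± 0.965 FPKM (SD, n = 3) and 5.41 ± 0.851 FPKM (SD, n = 3), with a log2 fold change of 0.43 (SE 0.175). The limma unadjusted p was 0.0469 and the adjusted p 0.668. Without Ctrl replicate 1, the sample with the high macrophage markers, the log2 fold change was 0.58 with an unadjusted limma p of 0.00963. Without cKO replicate 3 it was 0.52 with an unadjusted p of 0.0441, and without each of the other 4 samples in turn it lay between 0.31 and 0.43 with unadjusted p of 0.104 to 0.150, above the threshold.

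The exporter genes *Abca1* and *Abcg1* varied more within Ctrl than their means differed between the genotypes. *Abca1* was at 6.12, 10.3 and 16.4 FPKM in Ctrl and at 9.71, 6.44 and 11.1 FPKM in cKO samples, and *Abcg1* at 11.4, 15.4 and 19.5 FPKM against 16.6, 12.6 and 16.4 FPKM. Both were lowest in Ctrl replicate 1 and highest in Ctrl replicate 3, and their intervals of -1.004 to 0.64 and -0.49 to 0.49 leave room for sizeable differences in either direction. The LXR receptor genes were both lower on average: *Nr1h3* (LXRα) was at 3.67, 3.74 and 4.13 FPKM in Ctrl and at 3.35, 3.11 and 3.56 FPKM in cKO samples, without overlap, and *Nr1h2* (LXRβ) at 18.2, 20.4 and 20.2 FPKM against 18.7, 16.6 and 17.1 FPKM, with overlap. Their log2 fold changes were each -0.16, with intervals from -0.40 to 0.08 and from -0.36 to 0.05.

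In fatty acid synthesis *Scd2* (ENSMUSG00000025203, chromosome 19, 44293676 to 44306864), the desaturase that adds a double bond to saturated fatty acids, was the most abundant of the 4 genes and the one with an unadjusted p under 0.05. It was at 30.1, 32.2 and 37.5 FPKM in Ctrl and at 24.3, 25.2 and 26.04 FPKM in cKO samples. The genotypes did not overlap, and the means were 33.3 ± 3.81 FPKM (SD, n = 3) and 25.2 ± 0.848 FPKM (SD, n = 3), 24.2% lower in cKO. The log2 fold change was -0.38 (SE 0.0992, limma unadjusted p = 0.00731, adjusted p = 0.481). Over the 14 alternatives the unadjusted limma p lay between 0.00358 and 0.0380 and the fold change kept its direction.

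*Scd1*, the second desaturase, was at 3.98, 1.55 and 1.33 FPKM in Ctrl and at 0.942, 1.94 and 2.39 FPKM in cKO samples, the widest spread of the 36 relative to its mean within Ctrl (64.3%). Without Ctrl replicate 1, whose value exceeded the rest, its log2 fold change was 0.14 in place of -0.20. *Scd1* is 95.5% identical to *Scd2* over 623 bases, so reads in that stretch may be shared. *Fasn*, the fatty acid synthase, was at 10.3, 9.91 and 10.7 FPKM in Ctrl and at 10.4, 9.99 and 8.99 FPKM in cKO samples, with a 95% interval from -0.28 to 0.14. *Acaca*, the acetyl-CoA carboxylase, had an interval from -0.31 to 0.25, and the copy *Gm5182*, 99.2% identical over 6118 bases, was at 1.06 FPKM on average against 1.20 to 1.54 FPKM for *Acaca*. The 4 genes summed to 45.6, 45.0 and 51.1 FPKM in Ctrl and to 37.0, 38.4 and 38.9 FPKM in cKO samples, without overlap, and *Scd2* made up most of these sums.

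Around these genes, 57 further genes of the same pathways were read, of which 54 passed the filter. Of these, 3 were lower at an unadjusted p under 0.05, 5.56% against 3.07% of all genes tested, and 4 were higher, 7.41% against 4.33%, with a median log2 fold change of 0.05. None had an adjusted p under 0.05 by limma with Benjamini-Hochberg adjustment or by limma's voom. The lower ones were *Mlxipl*, a glucose-responsive regulator of lipid synthesis genes, at 42.3, 56.8 and 65.0 FPKM in Ctrl and 44.9, 26.8 and 26.4 FPKM in cKO samples (log2 fold change -0.75, adjusted p = 0.581), *Vldlr*, a lipoprotein receptor (-0.50, adjusted p = 0.626), and *Gramd1a*, a sterol carrier of membrane contact sites (-0.41, adjusted p = 0.475). Of these only *Mlxipl* overlapped between the genotypes, through cKO replicate 1. The higher ones were *Dhdds*, of dolichol synthesis (log2 fold change 0.36, adjusted p = 0.629), *Nceh1*, which hydrolyses cholesteryl esters (0.32, adjusted p = 0.650), *Acss2*, which makes acetyl-CoA from acetate (0.33, adjusted p = 0.667), and *Fads1*, a fatty acid desaturase (0.26, adjusted p = 0.545). Of the 10 genes of SREBP processing and sterol sensing, none had an unadjusted p under 0.05 by limma, and the smallest was 0.238.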

How the data were processed

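RNA-seq libraries were made from total RNA of islets, extracted with TRIzol, with a SMARTER mRNA kit (3 Ctrl and 3 cKO samples). The table deposited by the authors holds FPKM for each gene and each of the 6 samples, on GRCm38 (mm10) coordinates. Aligner, counter, annotation and strand setting are not given in the sources used here. Samples were grouped by their labels. From FPKM, log2(FPKM + 1) was fitted with limma 3.58.1 in R 4.3.3 (moderated by empirical Bayes with a mean trend; two-sided; p adjusted by Benjamini-Hochberg) on 21211 genes, those that reach 0.1 FPKM on average. FPKM multiplied by length gave whole reads for 100% of values (tolerance 0.1 reads), 16289408 to 17944775 per sample. They were used for depth and for voom. Alternatives were a pseudocount of 0.1, no filter, a mean FPKM of at least 1, median-of-ratios scaling, TPM without *Ins1* and *Ins2*, voom, sample weights, a replicate block and leaving out each sample. The code was tested on simulated data. The named genes are the 36 members and, of the 57 further genes, those past an unadjusted p of 0.05. *Parn*, *Ins1* and *Ins2* were also fixed by that rule. Gene copies, sums and ratios were added after the values were seen. Members, lists and alternatives were chosen with earlier results of these data known. Copies were found with BLAST 2.17.0 (at least 90% identity over 300 bases) in GENCODE transcripts. Promoter windows are those of RefSeq. Some genes of these pathways are not reported here.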

Additional observations from a re-analysis of the deposited data

How the results depend on the processing

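Of the 14 alternatives, 8 kept all samples and 6 left out 1. In the first 8, 34 of the 36 genes kept the direction of their log2 fold change. Under sample weights *Abcg1* was at -0.033 and *Scd1* at 0.029. No filter, a mean FPKM of at least 1 and the replicate block leave each fold change that they fit as in the main fit. These settings could not turn a direction. *Fdps* did not pass the filter at a mean FPKM of at least 1, so it was fitted in the other alternatives only. The median-of-ratios factors were 0.994 to 1.015, so that scaling changed little. Leaving out 1 sample turned 12 genes in at least 1 fit, with log2 fold changes from lowest to highest of -0.030 to 0.27 for *Acat2*, -0.0048 to 0.11 for *Mvk*, -0.14 to 0.0014 for *Fdft1*, -0.015 to 0.12 for *Lss*, -0.065 to 0.13 for *Hsd17b7*, -0.21 to 0.031 for *Srebf1*, -0.11 to 0.065 for *Scap*, -0.015 to 0.16 for *Npc1*, -0.51 to 0.14 for *Abca1*, -0.19 to 0.18 for *Abcg1*, -0.082 to 0.015 for *Acaca* and -0.41 to 0.14 for *Scd1*. The other 24 kept their direction. Genes past an unadjusted p of 0.05 numbered 2 to 6 lower and 1 to 2 higher among the 36 without 1 sample, where 1.90% to 5.53% of all genes were lower and 3.34% to 5.90% higher. They numbered 7 lower with sample weights (19.4% against 5.87% of all genes), 3 lower with TPM that leave out *Ins1* and *Ins2* (8.33% against 2.41%), and 1 higher with no filter on low values (2.78% against 3.57%). Genes without overlap numbered 7 to 11 lower (11 without Ctrl replicate 3) and 4 to 7 higher (7 without Ctrl replicate 1) without 1 sample, while the share over all genes was 9.78% to 14.7% lower and 10.2% to 14.4% higher in the same comparisons, against 6.03% and 7.11% with all samples. Over all genes, 1245 were lower at an unadjusted p under 0.05 with sample weights, and 402 (without cKO replicate 3) to 1173 (without Ctrl replicate 1) without 1 sample. At an adjusted p under 0.05 (limma, Benjamini-Hochberg), 0 genes were lower in any fit and 0 to 1 higher without 1 sample, the 1 without Ctrl replicate 1 and none of the 36. The cause of these shifts was not tested. With the replicate block, 4 of the 36 were lower and 2 higher at an unadjusted p under 0.05. Same-numbered samples did not deviate together (correlations -0.17, -0.02 and -0.07), so the numbers are not taken as pairs. At 3 samples a genotype the median standard error of the 36 was 0.13 on the log2 scale, which limits what can be told apart.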

Other observations

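Ctrl replicate 3 was the highest of the 6 samples for 16 of the 36 genes and the lowest for 9. Among the 18 cholesterol synthesis genes it was the lowest for 8, and Ctrl replicate 1 was the highest for 6. *Parn* had a log2 fold change of -0.44 (limma unadjusted p = 0.0135, adjusted p = 0.545).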
